A study of Homo sapiens with 16 samples.

Results

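The transcripts of glycolysis, glucose and lactate transport and the pentose phosphate pathway were followed in MCF10A cells, a nontransformed human mammary epithelial line, over 45 hours in CP724,714, a small molecule that inhibits the HER2 kinase. The 30 genes were listed by symbol as enzymes and transporters of these pathways. They were represented by 38 rows of the array table among 20589 rows in all, and each row was kept apart as a measurement of its own. Of these rows, 30 from 28 genes were above background on at least 3 arrays and were tested, among 11957 tested rows in all.

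One Illumina human Ref8v2 array was run for each of 16 time points at 3 hour intervals, from untreated cells at 0 hours to cells held in 1 µM of the inhibitor for 3 to 45 hours. All cultures were grown in serum-free medium with insulin, EGF and hydrocortisone, RNA came from parallel cultures, and the medium was changed at the start of treatment. The arrays were not replicated, and a course without inhibitor was not analysed here, so the inhibitor, the fresh medium and time in culture cannot be told apart. In a bulk array, fewer cells with a transcript and less of it per cell cannot be told apart either. Time was therefore compared in windows of 4 arrays (0 to 9, 12 to 21, 24 to 33 and 36 to 45 hours), with a finer contrast of 6 and 9 hours against 0 and 3 hours. The arrays within a window are different time points, so their spread holds any change inside the window as well as error.

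Glucose enters the cell through facilitated transporters and is trapped as glucose 6-phosphate by hexokinase. Glycolysis then carries it through phosphofructokinase, aldolase and the lower enzymes to pyruvate, which lactate dehydrogenase converts to lactate for export by monocarboxylate transporters. The pentose phosphate pathway branches from glucose 6-phosphate. Its oxidative arm makes NADPH and its nonoxidative arm makes ribose phosphate and returns carbon to glycolysis. In mammary epithelial cells this supply is under the control of insulin and growth factor signalling, and the study asked how HER2 signalling bears on glucose use.

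A pair of short motifs recurs in the promoters of glycolytic genes, ACGTG, the core of the hypoxia response element, and CACGTG, the E-box bound by MYC and MAX, which holds ACGTG within it. They were searched on both strands in the 250 bases before each RefSeq start on GRCh38.p14. RefSeq windows were found for 27 of the 30 genes, with PKM2 matched through its present symbol PKM, and several genes had more than 1 start. ACGTG was present in 32.7% of the 52 windows of these genes and in 18.5% of all 35116 windows, and CACGTG in 11.5% and 6.34%. GGGCGG, the GC box bound by SP1, was present in 65.4% and 42.6%. The stretches below are those of the genes whose levels are given at every time point further on and of which at least 1 window held ACGTG. They come from the start with the most matches, with the motif in capitals. ACGTG was in 1 of 7 windows for PFKM, 1 of 4 for PFKP and 1 of 2 for TPI1 and for LDHA. For HK2, GAPDH and PGK1 it was in every window. No promoter was assayed here, so a match is a description of the sequence.
HK2, chr2:74834961-74835041, plus strand: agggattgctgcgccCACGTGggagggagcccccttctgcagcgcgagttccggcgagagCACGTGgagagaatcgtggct
PFKM, chr12:48105344-48105378, plus strand: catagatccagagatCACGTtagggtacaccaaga
PFKP, chr10:3069035-3069069, plus strand: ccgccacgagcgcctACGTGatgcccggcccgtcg
TPI1, chr12:6868073-6868104, plus strand: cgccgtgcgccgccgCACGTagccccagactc
GAPDH, chr12:6535168-6535203, plus strand: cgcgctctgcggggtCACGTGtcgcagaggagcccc
PGK1, chrX:78104031-78104084, plus strand: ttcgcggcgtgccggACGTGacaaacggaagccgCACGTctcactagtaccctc
LDHA, chr11:18394363-18394509, plus strand: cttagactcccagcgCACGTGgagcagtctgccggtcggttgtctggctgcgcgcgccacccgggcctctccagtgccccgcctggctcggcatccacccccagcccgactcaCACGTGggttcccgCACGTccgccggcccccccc
HK2 and LDHA each had CACGTG at 2 positions and GAPDH at 1. In PGK1 the ACGTG core was present on each strand. These letters were not found in the windows of SLC2A1, PGAM1, PKM2, PGLS and RPIA, whose levels are also given in full.

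The array medians lay between 210 and 254 intensity units, the lowest at 45 hours. At least 10325 and at most 10889 rows were above background on each array. Markers of basal mammary epithelium were above background on all 16 arrays for 7 of 9 genes on the array, with KRT14 on 1 array and LAMB3 on at most 4. The LAMB3 row ILMN_1092 was above background by its detection p on no array, though its mean log2 level was 11.24. Its detection p thus does not show that the transcript was absent. Those of luminal cells were so for 4 of 7, with ESR1 and PGR on no array. No marker of fibroblasts (4), leukocytes (4) or endothelium (3) was above background on all 16 arrays. The endothelial marker PECAM1 was on 15 and the leukocyte marker CD14 on 12. The step between neighbouring arrays was uneven. A difference of 1.7-fold or more was found for 7.49% of all tested rows between 3 and 6 hours, the step at which the levels of HK2 and RPIA went up by as much, and for 7.36% between 9 and 12 hours. It was found for 6.39% between 33 and 36 hours, for 5.36% between 0 and 3 hours and for 2.25% between 6 and 9 hours, but for at most 1.31% at any other step. The labels and the file do not say which arrays shared a chip, and the part of chips in these steps was not tested.

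**Figure D1:**
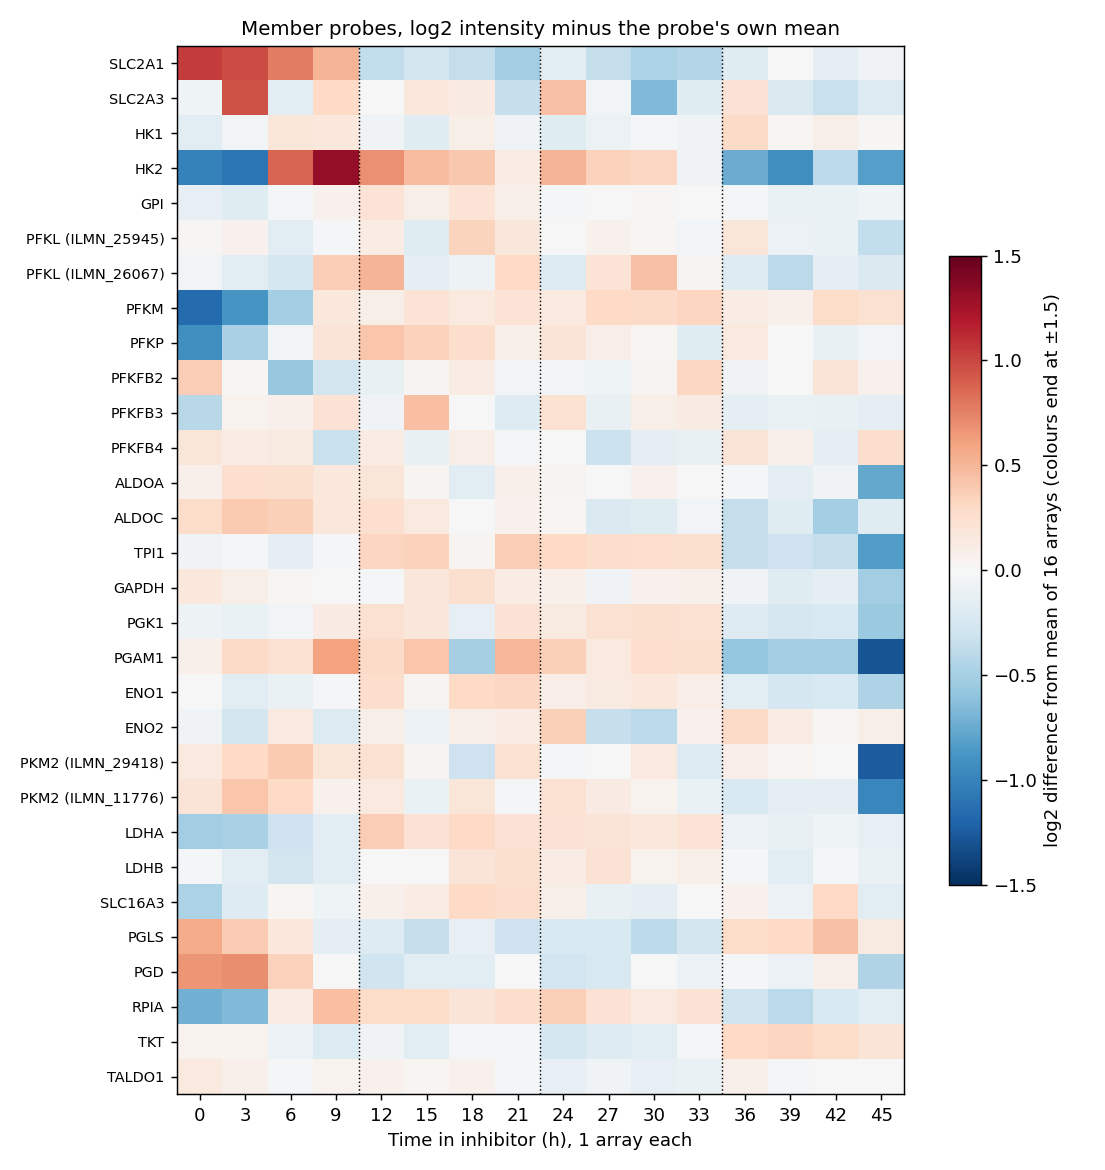
Heat map of the 30 tested rows by time, in the order of the pathway, as log2 intensity minus the mean of that row over its 16 arrays. Dotted lines separate the windows of 4 arrays. SLC2A1 went from high to low and HK2 from low to high within 12 hours, and rows from TPI1 to PKM2 were lowest on the 45 hour array, apart from ENO2.

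Over the whole course, 21 of the 30 rows, from 20 genes, had time-dependent expression by a cubic spline of time (limma, adjusted p under 0.05). This was 70% of the rows, and 54.6% of all tested rows passed the same test. Most of the 30 rows were above background on all 16 arrays, and of the 8636 rows of the array that were so, 65.4% passed. The 9 of the 30 rows that did not pass were SLC2A3, HK1, both rows of PFKL, PFKFB2, PFKFB3, PFKFB4, ENO2 and TALDO1. They hold every tested isoform of the bifunctional PFKFB enzymes, which set the level of the phosphofructokinase activator fructose 2,6-bisphosphate. Of the rows that did not pass, PFKFB2 was nonetheless called lower and HK1 higher at 6 and 9 hours, as given below. A straight line in time in place of the spline found 8 rows (26.7%), beside 16.3% of all tested rows.

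Genes of hexokinase, phosphofructokinase and the pentose phosphate pathway were among those that changed by 6 and 9 hours. HK2, the inducible hexokinase, rose 4.41-fold from 0 and 3 hours, where it was near background, to 6 and 9 hours. Both PFKM and PFKP, the muscle and platelet forms of phosphofructokinase, rose with it, and so did RPIA, the isomerase that makes ribose 5-phosphate. In the same contrast PGLS and PGD, which act one after the other in the oxidative pentose phosphate arm, fell. SLC2A1, which encodes the constitutive glucose transporter GLUT1, fell between the first 2 windows, by more than either of them.

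The log2 level of HK2 was 6.58, 6.51, 8.46 and 8.91 at 0, 3, 6 and 9 hours. It was 8.28, 8.05, 8.0 and 7.71 at 12 to 21 hours, 8.10, 7.94, 7.90 and 7.54 at 24 to 33 hours and 6.84, 6.68, 7.20 and 6.76 at 36 to 45 hours. The increase began between the 3 and 6 hour arrays, the peak was at 9 hours, and the last 4 arrays lay below every array from 6 to 33 hours. They lay above those of 0 and 3 hours, but all of these were near background. Raw intensities were 275 and 265 at 0 and 3 hours and 296, 257, 310 and 243 at 36 to 45 hours. The negative control beads had means of 166 to 199 and SDs of 35 to 44 over the arrays. The order of these low arrays and the size of the fold from them are thus uncertain. The increase at 6 and 9 hours was 2.14 ± 0.22 on the log2 scale (SE; adjusted p = 1.45e-06). The later decline from 24 to 33 hours to 36 to 45 hours was -1.002 ± 0.39 and did not pass the test (adjusted p = 0.0541), although the 2 windows did not overlap. It passed without the 0, 3, 6 or 9 hour array (estimates of -1.005 to -1.008), with median scaling (-1.08) or cyclic loess (-1.03), with only rows above background on all 16 arrays and in a fit to the arrays compared. The early increase was 1.16 without background correction, and still passed.

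The other early increases were smaller. RPIA had log2 levels of 9.48 and 9.54 at 0 and 3 hours and of 10.31 and 10.66 at 6 and 9 hours, then 10.48, 10.48, 10.40, 10.46, 10.56, 10.42, 10.35 and 10.42 from 12 to 33 hours, and 9.90, 9.80, 9.98 and 10.03 from 36 to 45 hours. Its rise of 0.97 ± 0.11 (adjusted p = 6.5e-06) thus held as a plateau to 33 hours before it was partly lost. PFKM was 8.29, 8.56, 8.93 and 9.60 at 0 to 9 hours, 9.53, 9.65, 9.59 and 9.65 at 12 to 21 hours, 9.59, 9.74, 9.73 and 9.76 at 24 to 33 hours and 9.55, 9.52, 9.72 and 9.68 at 36 to 45 hours. It climbed at each step to 9 hours and then stayed there, 0.84 ± 0.16 higher at 6 and 9 hours (adjusted p = 0.000666), a call that was lost in a fit to the 4 arrays compared, and a difference of 0.51 without the 9 hour array. PFKP was 11.71, 12.14, 12.58 and 12.82 at 0 to 9 hours, 13.04, 12.97, 12.89 and 12.71 at 12 to 21 hours, 12.81, 12.72, 12.65 and 12.44 at 24 to 33 hours and 12.77, 12.62, 12.51 and 12.58 at 36 to 45 hours. It also climbed at each step, to a peak at 12 hours, and all later arrays stayed above that of 3 hours (0.78 ± 0.14 at 6 and 9 hours, adjusted p = 0.00035). The liver form PFKL had 2 rows, neither of which was called in any comparison, and the weaker of them was above background on 6 arrays.

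In all, 6 of the 30 rows (20%) rose from 0 and 3 to 6 and 9 hours, beside 13.5% of all tested rows, and 3 (10%) fell, beside 11.1%. Of all rows above background on all 16 arrays, 16.8% rose and 14% fell. The median log2 difference was 0.02 over the 30 rows and -0.01 over all tested rows. The other 2 that rose were HK1 and LDHA, each by 0.28, and the others that fell were PFKFB2 by 0.62, PGD by 0.50 and PGLS by 0.45. Only 4 arrays entered this contrast, and single arrays decided several calls. HK1 lost its call without the 0, 6 or 9 hour array (0.21, 0.27 and 0.29), LDHA without that of 9 hours (0.20), PFKFB2 without 0 or 6 hours (-0.45 and -0.48), PGLS without 0 or 9 hours (-0.37 and -0.30) and PGD without 0, 3 or 9 hours (-0.52, -0.48 and -0.34). HK1 also lost it with median scaling (0.29) and cyclic loess (0.24). In a fit to the 4 arrays compared, HK1, LDHA, PFKM, PFKFB2, PGLS and PGD were not called, and HK2, RPIA and PFKP were. The count of rows that fell was then 0 without the 0 hour array and 1 without that of 9 hours.

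SLC2A1 had log2 levels of 10.00, 9.92, 9.72 and 9.46 at 0 to 9 hours. It had 8.58, 8.67, 8.59 and 8.42 at 12 to 21 hours, 8.79, 8.59, 8.47 and 8.51 at 24 to 33 hours and 8.77, 8.94, 8.81 and 8.89 at 36 to 45 hours. All 12 arrays from 12 hours on lay below the first 4, and the largest single step lay between 9 and 12 hours. The decrease from 0 to 9 hours to 12 to 21 hours was 2.31-fold (log2 -1.21 ± 0.12, adjusted p = 2.12e-06), and the last window was still 1.90-fold below the first (-0.92 ± 0.12, adjusted p = 1.75e-05). The early decline to 6 and 9 hours of -0.37 ± 0.14 did not pass the test (adjusted p = 0.0548), but did without the 6 hour array (-0.50) or the 24 hour array (-0.37), without background correction (-0.31), with an offset of 50 (-0.36) and with only rows above background on all 16 arrays. The difference of 0.26 ± 0.12 between the last 2 windows did not pass either (adjusted p = 0.0912), but did without the 9 hour array and in a fit to the 8 arrays compared (0.26 in both). SLC2A3, the high-affinity transporter GLUT3, was above background on 13 of 16 arrays and was called in no comparison. Its log2 level ranged from 5.66 at 30 hours to 7.26 at 3 hours, with no other array over 6.76.

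LDHA, the lactate dehydrogenase subunit that favours lactate formation, moved in the direction opposite to SLC2A1. Its log2 level was 14.70, 14.74, 14.92 and 15.07 at 0 to 9 hours and 15.59, 15.45, 15.53 and 15.45 at 12 to 21 hours. It remained at 15.45, 15.42, 15.39 and 15.44 at 24 to 33 hours and was 15.15, 15.12, 15.16 and 15.10 at 36 to 45 hours, so that the last 3 windows each lay above the first without overlap. The rise to 12 to 21 hours was 0.64 ± 0.06 (adjusted p = 1.88e-06), and the decline from 24 to 33 to 36 to 45 hours was -0.29 ± 0.06 (adjusted p = 0.00125). The raw intensity of this row reached 48364 on a scale whose highest value on any array was 68886, and whether its signal flattened there was not tested. SLC16A3, which encodes the lactate exporter MCT4, rose by 0.36 ± 0.11 to 12 to 21 hours (adjusted p = 0.0173), a call that was lost without the 0 hour array (0.26) or that of 18 hours (0.33). LDHB, the subunit of the other tetramer forms, rose by 0.26 ± 0.07 (adjusted p = 0.00751).

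**Figure D2:**
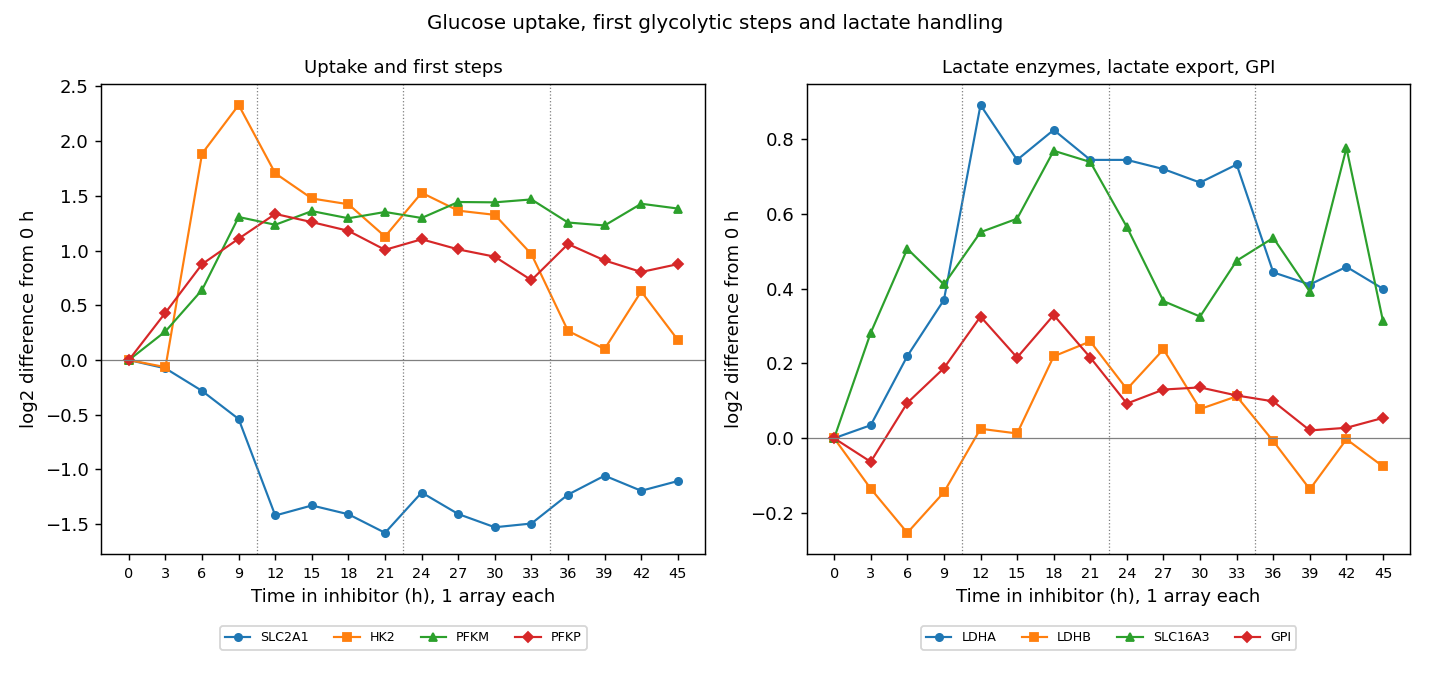
Log2 difference from the 0 hour array against time, 1 point for each array, for glucose uptake and the first steps (left) and for the lactate enzymes, the exporter SLC16A3 and GPI (right). Dotted lines separate the windows. SLC2A1 fell most between 9 and 12 hours, HK2 rose between 3 and 6 hours and fell back toward its first level after 33 hours, and LDHA was higher than at 0 hours on every later array.

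From 0 to 9 hours to 12 to 21 hours, 8 of the 30 rows (26.7%) rose, beside 15.1% of all tested rows, and 3 (10%) fell, beside 14.4%. Of all rows above background on all 16 arrays, 18.5% rose and 18.3% fell. The median log2 difference was 0.09 over the 30 rows and -0.00060 over all tested rows. Beside LDHA, PFKM, PFKP, SLC16A3 and LDHB, the rows that rose were TPI1 (0.33 ± 0.09), ENO1 (0.30 ± 0.06) and GPI (0.22 ± 0.06), which encode triose phosphate isomerase, the main enolase and glucose 6-phosphate isomerase. Those that fell were SLC2A1, PGD (-0.58 ± 0.14) and PGLS (-0.49 ± 0.11). The calls of PFKM (0.76 ± 0.18), PFKP (0.59 ± 0.17) and GPI were lost in a fit to the 8 arrays compared, and the difference of PFKP was 0.39 without the 0 hour array. HK2 differed by 0.40 ± 0.39 in this contrast (adjusted p = 0.493), and its first window holds both its lowest and its highest arrays.

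Between 12 to 21 and 24 to 33 hours nothing changed past the test. None of the 30 rows was called higher and none lower (limma), beside 0% and 0.0251% of all tested rows, the latter being 3 rows. At an unadjusted p under 0.05 there were 4 of the 30 rows, and 5 in a fit to the arrays of these windows alone, and the share among all tested rows was 4.89%. A lower value in the later window was seen for 21 of the 30 rows, with a median log2 difference of -0.06 against 0.00068 over all tested rows.

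Most of the listed genes of the lower part of glycolysis fell late. From 24 to 33 hours to 36 to 45 hours, TPI1, GAPDH, PGK1, PGAM1, ENO1 and 1 of the 2 PKM2 rows fell, which is 1 gene for every step from triose phosphate to pyruvate, together with both lactate dehydrogenase subunits and RPIA. The largest of these decreases was that of PGAM1, phosphoglycerate mutase, at 1.97-fold. In the same contrast TKT, the transketolase of the nonoxidative pentose phosphate arm, and PGLS rose, and ENO2 was not called (0.21). Of the further genes described below, the enolase ENO3 rose (0.77 ± 0.17, limma adjusted p = 0.00178) and PGAM4 fell (-0.77 ± 0.11, limma adjusted p = 3.27e-05).

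PGAM1 had log2 levels of 10.00, 10.21, 10.14 and 10.52 at 0 to 9 hours, 10.21, 10.33, 9.42 and 10.42 at 12 to 21 hours, 10.28, 10.06, 10.16 and 10.16 at 24 to 33 hours and 9.34, 9.40, 9.40 and 8.63 at 36 to 45 hours. The last 4 arrays and that of 18 hours were thus the 5 lowest, and the difference of the last 2 windows was -0.98 ± 0.20 (adjusted p = 0.000864). TPI1 was 13.95, 13.97, 13.85 and 13.96 at 0 to 9 hours, 14.32, 14.35, 14.03 and 14.36 at 12 to 21 hours, 14.29, 14.26, 14.25 and 14.23 at 24 to 33 hours and 13.65, 13.69, 13.65 and 13.16 at 36 to 45 hours. It had a plateau broken at 18 hours, and its last 4 arrays were below all others, with a difference of -0.72 ± 0.09 from the window before (adjusted p = 1.4e-05). PGK1, phosphoglycerate kinase, was 12.99, 12.97, 13.03 and 13.20 at 0 to 9 hours, 13.30, 13.24, 12.95 and 13.29 at 12 to 21 hours, 13.20, 13.30, 13.31 and 13.31 at 24 to 33 hours and 12.88, 12.82, 12.84 and 12.51 at 36 to 45 hours. It had the same dip at 18 hours and a decrease of -0.52 ± 0.09 (adjusted p = 0.000146). ENO1 fell by 0.41 ± 0.06 (adjusted p = 9.39e-05).

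GAPDH, which encodes glyceraldehyde 3-phosphate dehydrogenase and served the study as a reference transcript in RT-PCR, was 14.31, 14.23, 14.16 and 14.14 at 0 to 9 hours and 14.11, 14.31, 14.38 and 14.25 at 12 to 21 hours. It was 14.22, 14.09, 14.20 and 14.21 at 24 to 33 hours and 14.09, 13.96, 13.99 and 13.62 at 36 to 45 hours. Its range over the 16 arrays was 1.69-fold. All 4 of the last arrays were below the 12 earlier ones, with a difference from 24 to 33 hours of -0.27 ± 0.08 (adjusted p = 0.0144). PKM2, an older symbol of the pyruvate kinase gene PKM, was given by 2 rows. The called row (ILMN_11776) was 10.14, 10.36, 10.24 and 10.01 at 0 to 9 hours, 10.09, 9.84, 10.12 and 9.92 at 12 to 21 hours, 10.17, 10.06, 10.00 and 9.84 at 24 to 33 hours and 9.72, 9.81, 9.80 and 8.97 at 36 to 45 hours. Here the 45 hour array stood apart from the rest, and the same was true of the second row (ILMN_29418), which was between 9.82 and 10.52 on the other 15 arrays and 8.87 at 45 hours and was not called in either late contrast.

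The 45 hour array was the lowest of all 16 for TPI1, GAPDH, PGK1, PGAM1, ENO1, both PKM2 rows and ALDOA. From 42 to 45 hours 3 of the 30 rows (10%) fell at least 1.7-fold and none rose as much, while 1.31% of all tested rows changed as much in either direction. This array also had the lowest median intensity, and the part of that in the decrease was not tested. Without it, the late differences of PGAM1 (-0.79), TPI1 (-0.60), PGK1 (-0.43), ENO1 (-0.35) and GAPDH (-0.17) kept their calls and that of the PKM2 row did not (-0.24). With array medians set equal, that of GAPDH was -0.42.

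**Figure D3:**
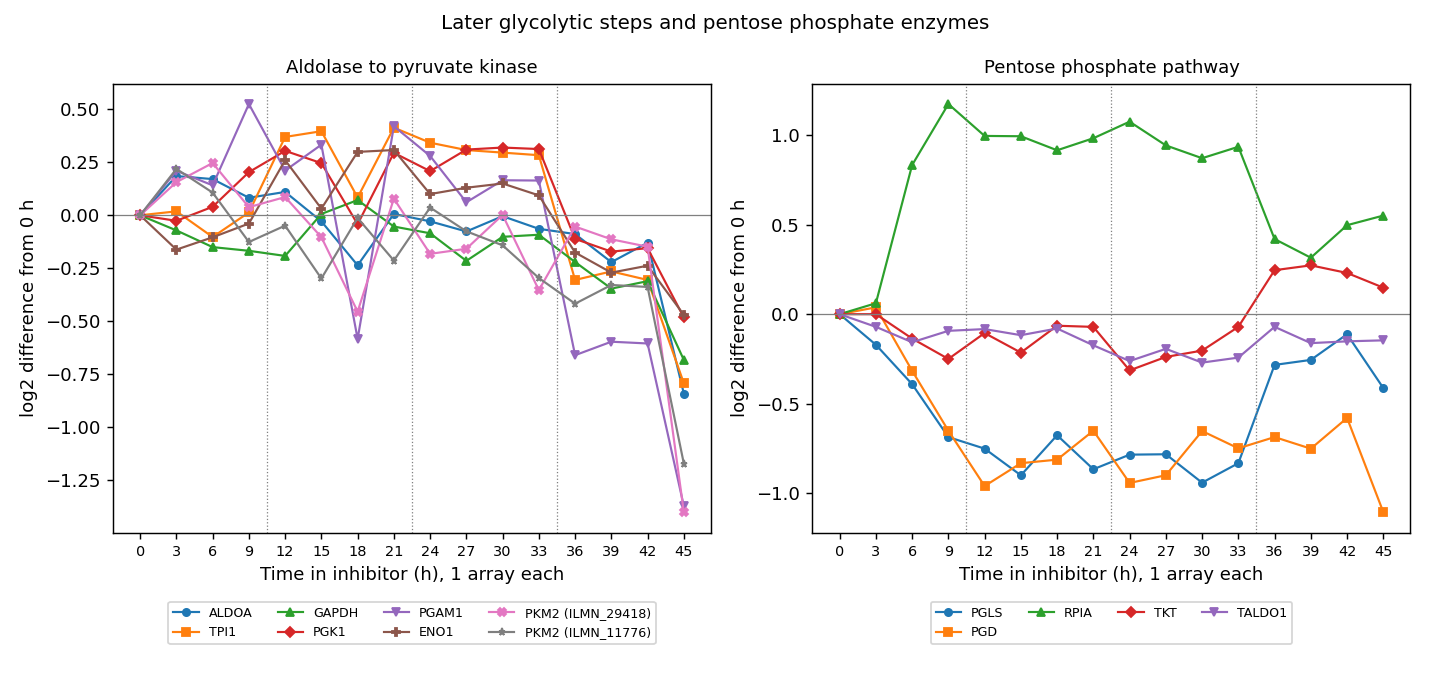
Log2 difference from the 0 hour array against time, 1 point for each array, for the steps from aldolase to pyruvate kinase (left) and for the pentose phosphate enzymes (right). Dotted lines separate the windows. The left courses fall on the 45 hour array. PGAM1, TPI1, PGK1, ALDOA and the PKM2 row ILMN_29418 are also lower at 18 hours than at 15 and 21 hours. From 36 hours on, every left course but that of ILMN_29418 lies below its arrays of 24 to 33 hours. On the right, RPIA and the pair of PGLS and PGD part within 9 hours, and PGLS, but not PGD, comes back from 36 hours on.

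PGLS, which encodes 6-phosphogluconolactonase, was 12.39, 12.22, 12.00 and 11.70 at 0 to 9 hours, 11.64, 11.49, 11.71 and 11.52 at 12 to 21 hours, 11.60, 11.61, 11.45 and 11.56 at 24 to 33 hours and 12.11, 12.13, 12.28 and 11.98 at 36 to 45 hours. It fell at every step to 9 hours and rose between 33 and 36 hours, by 0.57 ± 0.11 over the last windows (adjusted p = 0.000638). PGD, which encodes 6-phosphogluconate dehydrogenase, began at 11.36 and 11.39, was 10.71 at 9 hours and stayed between 10.25 and 10.78 from 12 hours on, so that the last 2 windows overlapped. TKT was between 14.05 and 14.36 to 33 hours and between 14.51 and 14.64 after, a rise of 0.43 ± 0.06 (adjusted p = 3.5e-05). TALDO1, transaldolase, had the smallest range of all the tested rows of these genes, 1.21-fold, and no comparison called it.

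Over these 2 windows 9 of the 30 rows (30%) fell, beside 18.7% of all tested rows, and 2 (6.67%) rose, beside 19.3%. The median log2 difference was -0.15 over these rows and -0.0021 over all. RPIA (-0.51 ± 0.19) lost its call without any 1 of the 8 arrays compared, with differences from -0.47 to -0.55. The PKM2 row (-0.44 ± 0.15) lost it without the 24, 27, 30 or 45 hour array (-0.39, -0.43, -0.45 and -0.24), and LDHB (-0.20 ± 0.07) without that of 24, 27, 39 or 45 hours (-0.20, -0.16, -0.17 and -0.19). The count of rows that fell was 6 without the 24, 27 or 45 hour array.

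**Figure D4:**
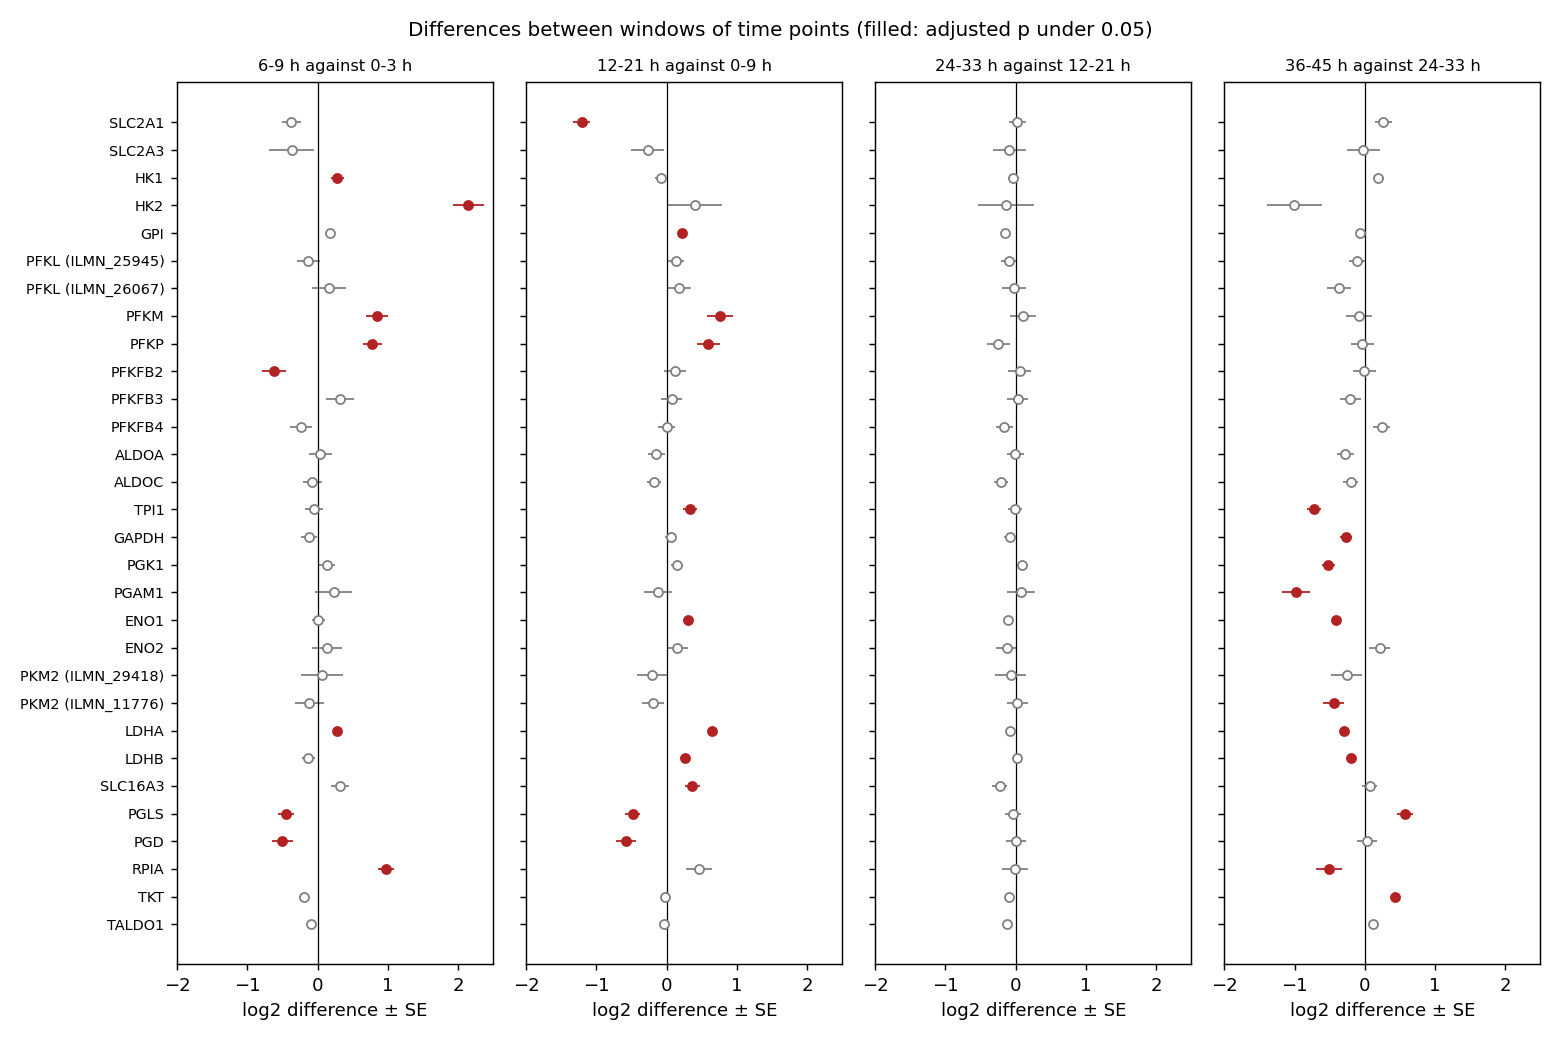
Log2 difference between neighbouring windows for each of the 30 tested rows, with its standard error from limma, and filled points for an adjusted p under 0.05. HK2, RPIA, PFKM and PFKP lie to the right in the first panel and SLC2A1 to the left in the second, the third has no filled point, and 9 of the 11 filled points in the fourth lie to the left.

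From the first window to the last, 10 of the 30 rows (33.3%) were lower, beside 15% of all tested rows, and 3 (10%) were higher, beside 16.2%. The median log2 difference was -0.09 over these rows and -0.02 over all. The rows that were lower were PGAM1 (-1.03 ± 0.20, adjusted p = 0.000776), SLC2A1, the PKM2 row ILMN_11776 (-0.61 ± 0.15, adjusted p = 0.00538), ALDOC (-0.60 ± 0.10, adjusted p = 0.00023), PGD (-0.55), ALDOA (-0.43), TPI1 (-0.40), GAPDH (-0.29), PGK1 (-0.28) and ENO1 (-0.21). ALDOA and ALDOC encode the aldolases, and the log2 level of ALDOC, the brain form, went from 9.81 at 3 hours to its lowest, 8.91, at 42 hours. Those that were higher were PFKM (0.77 ± 0.18, adjusted p = 0.00404), TKT (0.32 ± 0.06, adjusted p = 0.000769) and LDHA (0.27 ± 0.06, adjusted p = 0.00291). Without the 45 hour array PGK1 (-0.20) and ENO1 (-0.15) were not called and ALDOA was -0.26, and HK2 (-0.74 ± 0.39, adjusted p = 0.163) was called lower without the 0 hour array (-1.09) or the 3 hour array (-1.12). In this contrast the scale mattered, since array medians set equal in place of whole distributions gave 7 lower rows (23.3%, beside 8.61% of all tested rows) and left out GAPDH (-0.19), PGK1 (-0.18) and ENO1 (-0.12). A contrast that leaves out the step between 21 and 24 hours, and has a larger variance by construction, called SLC2A1 (-0.95) and PGAM1 (-1.10) lower and TKT (0.41) and LDHA (0.35) higher. It did not call ALDOC (-0.38), ALDOA (-0.42), TPI1 (-0.39), GAPDH (-0.21), PGK1 (-0.37), ENO1 (-0.11), the PKM2 row (-0.64), PGD (-0.55) or PFKM (0.67). ALDOA and PGK1 were also not called in a fit to the 8 arrays compared, nor TKT between 0 and 3 and 42 and 45 hours (0.19).

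Likeness between the courses was described by Pearson's r over the 16 arrays, which share their culture series and, at neighbouring times, much of their state. Of the 435 pairs of tested rows 254 had a positive r, with a median of 0.095. The highest were between ALDOA and the PKM2 row ILMN_29418 (0.96), TPI1 and PGK1 (0.95) and HK2 and RPIA (0.90). The lowest were between SLC2A1 and LDHA (-0.92), SLC2A1 and PFKM (-0.89) and PGLS and RPIA (-0.88).

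There were 8 rows that were not tested. For HK1 and ALDOA, 2 further rows each were above background on no array, and so were the only row of SLC16A1, the lactate and pyruvate transporter MCT1, and 1 of the 2 rows of RPE, the epimerase of the nonoxidative arm. The second row of PFKFB2 was above background on 2 arrays. The other row of RPE, which combined more than 1 probe, was above background by its detection p on 1 array, though its log2 level was between 8.33 and 9.33. It was 8.38 and 8.33 at 0 and 3 hours and 8.68 and 9.22 at 6 and 9 hours, and without the filter it was 0.59 ± 0.15 higher in that contrast (adjusted p = 0.0107). The rows of one gene may represent different transcripts, and the sequences of the probes were not used here.

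Around these enzymes, 71 further symbols for genes of glucose metabolism, its regulation and the response to low oxygen were listed. Some of these symbols are an older and a newer name of 1 gene. From this list 49 rows from 45 genes were tested, and 29 (59.2%) had time-dependent expression, beside 54.6% of all tested rows. In the early contrast 6 rose and 6 fell (12.2% each, beside 13.5% and 11.1%), from the first to the last window 7 rose (14.3%, beside 16.2%) and 11 fell (22.4%, beside 15%), and between 12 to 21 and 24 to 33 hours none was called. The largest differences from the first window to the last were those of TXNIP, SLC2A6 and C12orf5. TXNIP, which inhibits glucose uptake and is induced by glucose, went from 13.29 and 13.25 at 0 and 3 hours to 11.81 and 11.77 at 6 and 9 hours and was between 14.39 and 14.75 at 36 to 45 hours (2.05 ± 0.31 over the first window, adjusted p = 8.63e-05). C12orf5, the earlier symbol of TIGAR, which lowers fructose 2,6-bisphosphate, was between 9.78 and 9.99 at 0 to 9 hours and between 8.68 and 8.89 at 36 to 45 hours (-1.12 ± 0.10, adjusted p = 3.03e-07). SLC2A6, a further transporter of the family, fell from 8.28 at 0 hours to 6.87 at 9 hours and was above background on 13 arrays (-1.60 ± 0.23, adjusted p = 5.3e-05).

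SLC2A4, which encodes the insulin-responsive transporter GLUT4, was above background on 8 of 16 arrays. Its log2 level was between 5.65 and 6.45 and no comparison called it. Of the transcripts used as readouts of low oxygen, CA9, a carbonic anhydrase, rose by 0.49 ± 0.13 to 12 to 21 hours (adjusted p = 0.0087) and fell by 0.59 ± 0.13 in the last window (adjusted p = 0.00144). NDRG1 went the other way in these contrasts, with -0.68 ± 0.20 (adjusted p = 0.0172) and then 1.09 ± 0.20 (adjusted p = 0.000372), after a rise of 0.73 ± 0.21 at 6 and 9 hours (adjusted p = 0.0165). EGLN1, an oxygen sensor of the same list that was named after its values were seen, rose by 1.13 ± 0.19 at 6 and 9 hours (adjusted p = 0.000277) and was called in no other comparison. BNIP3 and ADM were called in no comparison, and the EGLN3 row was above background on no array. The log2 level of ADM was nonetheless 12.97 at 0 hours and between 10.12 and 10.97 on all later arrays. This fall lies inside the first window of each fit, so no contrast measured it, and it rests on the single 0 hour array.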

How the data were processed

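Per the labels, total RNA from 16 parallel MCF10A cultures was labelled with biotin and hybridized to the Illumina human Ref8v2 array, 1 array per time point. The authors deposited linear bead intensity values that had not been normalized, 1 per row and array, each with a detection p-value that sets the row against the negative control beads. Here the mean and SD of those beads were inferred from the detection p-values of the 19092 rows that hold a single probe, in which these are multiples of 1 part in 708 within 0.001. The intensities were background corrected (normexp, offset of 16), quantile normalized and taken to log2, as the study's methods name quantile normalization. To be tested, a row had to reach a detection p under 0.05 on 3 or more of the 16 arrays. The offset makes fold changes of rows near background smaller than they were.

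Time was tested with limma 3.58.1 in R 4.3.3, with moderated F and two-sided tests, the trend of variance on level, and Benjamini-Hochberg adjustment over all 11957 tested rows. The spline had 3 degrees of freedom and left 12 for the residual, as did the fit of 4 windows, and the fit of 5 windows used for 6 and 9 hours left 11. A row was called at an adjusted p under 0.05. The code was tested on simulated data. Levels are given at every time point for the 4 called rows with the largest difference in each contrast and for SLC2A1, HK2, LDHA and GAPDH. The genes, the further lists and these rules were chosen with earlier results of these data known, so no list was tested as a whole. Single arrays limit the precision. The p-values of the window contrasts rest on the spread between time points within windows, pooled over all windows of the fit. Those of the spline rest on the spread around the curve. Neither measures the spread between cultures of one time. Promoter windows, symbols and coordinates came from RefSeq tables of GRCh38.p14. The alternatives were median scaling, cyclic loess, an offset of 50, intensities left without background correction, other filters, curves and contrasts, fits to the arrays compared, and leaving out each time point. Leaving out 18 and 45 hours together was added after the values were seen. Arrays of HER2-overexpressing cells were not analysed here.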

Additional observations from a re-analysis of the deposited data

Results flagged for a closer look

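In windows of 4 arrays, 15 of 120 had 1 array far from the other 3, where chance flags about 1 in 20. Of these, 5 were at 45 hours and 3 at 18 hours, and all but 1 were low. At 45 hours PGAM1 had a log2 level of 8.63, PGK1 12.51, TPI1 13.16, the PKM2 row ILMN_29418 8.87 and ILMN_11776 8.97. The other 3 arrays of the last window were at 9.34 or more for PGAM1, at 12.82 or more for PGK1 and at 13.65 or more for TPI1, and for the PKM2 rows at 10.12 or more and 9.72 or more. At 18 hours PGK1 had 12.95, TPI1 14.03 and RPIA 10.40. In the other windows TPI1 was low at 6 hours (13.85), PFKFB4 at 9 hours (9.12), ENO2 at 15 hours (6.06), PGK1 at 24 hours (13.20), PFKM at 24 hours (9.59) and GAPDH at 27 hours (14.09). TALDO1 was high at 36 hours (13.65). The windows hold successive time points, so a course that changes within a window can set 1 array apart as well. The rows share the same arrays and several had like courses, so the flags are not independent and 1 array can give several. Their number is thus a description and was not tested against chance.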

How the results depend on the processing

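No called result changed its sign under these alternatives. Of the values that were not called, HK2 in the last window against the first was 0.44 between 0 and 3 and 42 and 45 hours in place of -0.74, and between 12 to 21 and 24 to 33 hours SLC2A1 was -0.02 without 21 hours and -0.04 without 24 hours in place of 0.02, while GAPDH and LDHA were 0.07 and 0.08 with median scaling in place of -0.08. The spline called 21 rows, and a straight line 8. For 6 and 9 against 0 and 3 hours, a fit to the 4 arrays compared called 3 rows higher in place of 6 and 0 lower in place of 3, and leaving out single arrays gave 0 to 4 lower. For 12 to 21 against 0 to 9 hours a fit to the arrays compared called 5 higher in place of 8, and for 36 to 45 against 24 to 33 hours 4 higher in place of 2. For 36 to 45 against 0 to 9 hours, 0 and 3 against 42 and 45 hours called 5 higher in place of 3. The sum of the steps before 21 and after 24 hours, which leaves out that between 21 and 24 hours and has a larger variance by construction, called 2 lower in place of 10. Leaving out single arrays gave 6 to 10 lower in place of 9 for the last 2 windows and 8 to 11 in place of 10 for the last against the first. The other counts stayed within 1.5 times of those reported. Median scaling moved the split of all tested rows most. It gave 2794 higher and 1029 lower in the last window against the first (1932 and 1798 as reported), 2811 and 1030 for 12 to 21 against 0 to 9 hours (1807 and 1720), 1719 and 2935 for the last 2 windows (2309 and 2233), and 1756 and 942 at 6 and 9 hours (1620 and 1333). Without background correction and with an offset of 50, 54 of 55 single values kept their call or lack of one, and with cyclic loess 53. Beside those given with the results, some called differences kept their call but moved by over 1.5 times. With median scaling those of 12 to 21 against 0 to 9 hours were 0.36 for GPI, 0.42 for LDHB and -0.31 for PGLS, and those of the last 2 windows -0.37 for LDHB and 0.36 for PGLS. ENO1 at 12 to 21 hours was 0.18 with cyclic loess, and PFKFB2 at 6 and 9 hours -0.36 without background correction. Between 0 and 3 and 42 and 45 hours PFKM was 1.28, GAPDH -0.46, LDHA 0.41 and PGD -0.86. The array chip as a block was not run, since neither the labels nor the file name the chip. No paired analysis was possible because no group has more than 1 array. With 1 array per time point, a change at a single time cannot be told apart from an array that stands apart, and rows near background, such as those of SLC2A3, ENO2 and SLC2A4, had little signal to show a difference.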
